A study of Mus musculus with 9 samples.

Results

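Chromatin that was called open when Pcgf6 was overexpressed, and in no other condition of the study, made up 2485 of 194733 regions. The regions came from ATAC-seq, in which a transposase cuts accessible DNA, in dendritic cells that were grown from C57Bl/6 mouse bone marrow for 9 days in 20 ng/mL GM-CSF. Cells received a retroviral vector on day 2 and were sorted for its human CD8 reporter and for CD11c, so the groups differ in the vector and share the strain, the culture and the sort. OE cells carried the vector that overexpresses Pcgf6, HP109 cells the vector that knocks Pcgf6 down, LMP8 cells the control vector of the knockdown and mi8 cells the control vector of the overexpression. There were 2 libraries for each of the 4 vectors and 1 input library, but the authors deposited 1 peak list per vector, which pools its libraries. A value therefore has no replicate spread, and no test between vectors was possible.

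To choose the members, the peaks of the 4 lists on chromosomes 1 to 19 and X were merged wherever they overlapped by at least 1 bp, and merged regions with an OE peak and no HP109, LMP8 or mi8 peak were kept. They were thus chosen by the presence and absence of called peaks in these same lists. They are called OE-only regions here. The OE-only regions were 2.38% of the 104298 OE regions (exact 95% interval 2.29 to 2.48%). By the same rule HP109 alone held 16532 regions (10.3% of its own), LMP8 alone 4474 (3.38%) and mi8 alone 19266 (11.6%). The OE list was the shortest, with 111488 peaks, against 170077 for HP109, 140716 for LMP8 and 170946 for mi8. Taken list by list, 4891 OE regions had no HP109 peak (4.69%), 11172 no LMP8 peak (10.7%) and 4898 no mi8 peak (4.7%). Intervals here and below cover counting error alone.

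Pcgf6 is a Polycomb-group RING finger protein and the defining subunit of PRC1.6, a variant Polycomb repressive complex that ubiquitylates histone H2A and contains the DNA-binding partners MGA, MAX and E2F6. The complex is best known for keeping germline genes silent in embryonic stem cells. In GM-CSF cultures of bone marrow, dendritic cells grow beside macrophage-like cells, and their activation brings expression of costimulatory molecules and cytokines and a shift towards glycolysis.

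Few OE-only regions lay at gene starts, so the sequences shown are those of the members that did. In a RefSeq table of 32851 promoter windows (assembly GRCm38.p6, 250 bp before to 50 bp after an annotated start), 17 OE-only regions touched 19 windows. The lines below give the stretch of the window under the OE-only region for 6 of them, read in the direction of the gene. They were chosen with the values in view: the first 5 have the strongest OE peaks of the 17, and Dnajc6 is the next that belongs to a protein-coding gene. Capitals mark a match to a motif listed after them.
Gm52528 (chr2:145361975-145362117, - strand): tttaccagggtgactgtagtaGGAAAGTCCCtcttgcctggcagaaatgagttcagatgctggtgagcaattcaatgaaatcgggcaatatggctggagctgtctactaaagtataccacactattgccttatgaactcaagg
Gm40424 (chr12:54176862-54177136, + strand): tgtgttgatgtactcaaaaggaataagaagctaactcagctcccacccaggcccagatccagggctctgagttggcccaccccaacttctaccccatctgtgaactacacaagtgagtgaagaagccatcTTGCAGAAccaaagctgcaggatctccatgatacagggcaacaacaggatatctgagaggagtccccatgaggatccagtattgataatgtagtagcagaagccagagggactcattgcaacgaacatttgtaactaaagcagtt
Gm5174 (chr10:86655556-86655720, + strand): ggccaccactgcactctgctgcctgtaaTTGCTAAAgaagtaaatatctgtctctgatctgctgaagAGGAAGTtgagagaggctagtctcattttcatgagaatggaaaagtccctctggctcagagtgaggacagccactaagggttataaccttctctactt
Plekha8 (chr6:54602947-54603148, + strand): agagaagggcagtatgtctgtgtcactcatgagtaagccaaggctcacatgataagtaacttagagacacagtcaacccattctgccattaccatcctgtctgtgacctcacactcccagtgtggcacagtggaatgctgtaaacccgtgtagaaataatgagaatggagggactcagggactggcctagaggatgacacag
Lhx8 (chr3:154330574-154330703, - strand): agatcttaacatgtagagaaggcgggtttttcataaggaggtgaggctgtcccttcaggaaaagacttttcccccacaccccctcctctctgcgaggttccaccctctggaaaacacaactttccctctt
Dnajc6 (chr4:101550412-101550518, + strand): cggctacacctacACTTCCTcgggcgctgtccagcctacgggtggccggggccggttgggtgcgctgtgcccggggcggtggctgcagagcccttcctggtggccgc

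The Gm52528 stretch is part of a region within Slc24a3 with −log10 q 21.9, and the Gm40424 stretch belongs to a group of OE-only regions past the end of Egln3 that is described below. The motifs searched on both strands were the E-box CACGTG, the AP-1 motif TGANTCA, the PU.1 motif AGGAAGT, the E2F motif TTCCCGC, the hypoxia core ACGTG, which also lies within the E-box, the NF-kB motif (GGGA and TTCC, 2 bases apart), the interferon motif (GAAA and again GAAA, 2 bases apart), the C/EBP motif TTGCNNAA, the T-box motif AGGTGTG and a CTCF motif (CCA, AG and GGC, each 2 bases apart). Among the 19 whole windows, 5 held the C/EBP motif (26.3%, against 10.8% of all windows) and 3 the PU.1 motif (15.8%, against 9.35%). Both counts include a pair of Gm5174 windows that start 6 bp apart and share their sites, so the 3 PU.1 windows stand for 2 genes, Gm5174 and Dnajc6. NF-kB and CTCF motifs were in 1 window each (5.26%, against 1.47% and 2.43% of all windows). None of the 19 windows held the E-box (7.15% of all windows), the hypoxia core (19.6%), AP-1 (7.81%), T-box (5.84%), E2F (4.60%) or interferon (3.44%) letters. The median GC content was 47% in the 19 windows and 52.7% in all windows, and its part in these shares was not tested. With 19 windows these are descriptions of the letters and not of binding.

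The OE-only regions were weak by the authors' own peak values, which the rule in part fixes, so these are given as a description. The −log10 q of their strongest OE peak had a median of 4.60, ranging between 1.39 and 31.5, against a median of 16.1 for the other OE regions. The fold over background had a median of 4.13 in OE-only regions and 7.75 in other OE regions. The pileup at the summit, recovered from the deposited fold and −log10 p, had a median of 13 reads in OE-only regions and 26 in other OE regions. They were also narrow, with a median width of 129 bp, against 368 bp for other OE regions. OE-only regions were thus short stretches with a small number of reads, as the plot of strength shows. Regions of 1 other list alone were alike in this, with median −log10 q of 4.77 in HP109, 3.63 in LMP8 and 4.29 in mi8. Their median widths were 117, 115 and 126 bp and their median pileups 11, 10 and 13 reads in the same order.

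**Figure D1:**
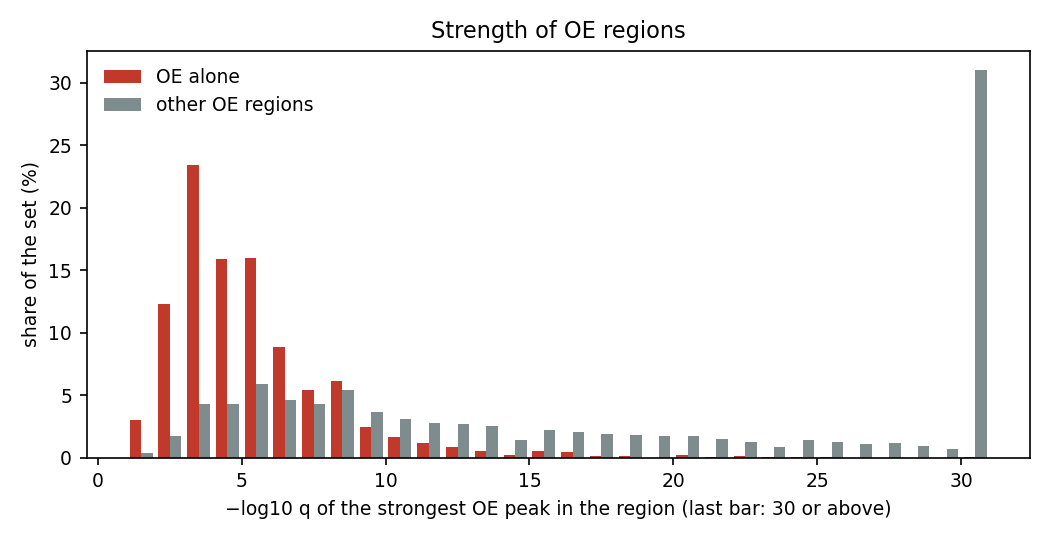
Share of each set of OE regions (%, y axis) by the −log10 q of the strongest OE peak (x axis, steps of 1, last bar 30 or above), for OE-only regions (red) and other OE regions (grey). Most of the red bars lie below 10, and the median is 4.60 in OE-only regions and 16.1 in other OE regions.

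The share of OE regions with no partner fell with strength. Among OE regions with −log10 q below 5, 1358 of 12318 (11.02%) were OE-only. The share was 3.81% between 5 and 10, 0.634% between 10 and 20 and 0.0777% between 20 and 40. Of the 23185 OE regions at 40 or above, 0 were OE-only, which allows a share of up to 0.0159%. The strongest OE regions thus all had a counterpart in another list.

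The rule turned on short distances for a few members. There were 26 OE-only regions within 10 bp of another list's peak, with OE −log10 q between 2.04 and 10.3 (median 3.53). On the other side of the threshold, 10 OE regions were joined to 1 other list by at most 10 bp, with OE −log10 q between 2.30 and 5.49 (median 4.05). The median gap of an OE-only region to the nearest peak of another list was 1.741 kb, and 974 (39.2%) had one within 1 kb. The median gap was 2.148 kb to HP109, 3.165 kb to LMP8 and 2.229 kb to mi8. Many OE-only regions were therefore additional peaks in neighbourhoods that were open in the other cells too.

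Depth touches what a missing peak means, since it sets how few reads can be called. The lowest summit pileup in a list was 8 reads in OE, 6 in HP109, 6 in LMP8 and 7 in mi8, and the lowest background was 2.00, 1.35, 1.42 and 1.95 reads in the same order. OE and mi8 thus stood at a like background, while HP109 and LMP8 stood lower. Read totals per library were not used here. The part of depth in these regions was not tested.

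The labelled cell type was checked at its marker genes. In the OE list, 9 of 10 dendritic cell markers and 10 of 10 macrophage markers had a region within 1000 bp of a gene end (start or end). Ciita was the dendritic marker that had none. Of other cell types, 3 of 13 granulocyte and mast cell markers, 2 of 10 lymphoid, 5 of 10 erythroid and megakaryocyte and 2 of 8 stromal markers had one. The share of all genes with such a region is not given here. For the narrower promoter windows, 13570 of 32851 held an OE region, 14790 an HP109, 14493 an LMP8 and 14951 a mi8 region. The other lists, which are longer, held at least as many in each class: 10 of 10 dendritic and 10 of 10 macrophage markers in each, and, for HP109, LMP8 and mi8 in this order, 8, 6 and 7 granulocyte and mast cell, 6, 4 and 4 lymphoid, 8, 6 and 7 erythroid and megakaryocyte and 3, 2 and 4 stromal markers. At Pcgf6 itself there were 2 OE regions in the gene, against 3 in each of the other lists, and none was OE-only; the nearest OE-only region lay 148 kb away. Neither marker nor Pcgf6 levels can be read from peaks, so the overexpression could not be checked in these lists.

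OE-only regions lay inside genes somewhat less often than other OE regions did, and less often at gene ends, meaning here the start or the end of a gene. Within protein-coding spans were 1365 of 2485 OE-only regions (54.9%, interval 52.9 to 56.9%), against 60.0% of other OE regions and 58.1% of other OE regions weighted to the strength of the OE-only ones. Within 1000 bp of a gene start or end were 195 (7.85%, interval 6.82 to 8.97%), against 15.99% of other OE regions and 11.2% when weighted by strength. In a promoter window were 17 (0.684%, interval 0.399 to 1.09%), against 10.3% of other OE regions and 3.70% when weighted by strength. Weighting by strength thus brought the other OE regions closer to the OE-only ones at promoters and gene ends, and the rest of the gap was not tested. Strength was matched in part only, since other OE regions stronger than any OE-only region entered the weighting. In promoter windows the regions of 1 other list alone were also rare, with 1.16% in HP109, 1.63% in LMP8 and 1.47% in mi8. At gene ends their shares were 7.46% in HP109, 13.05% in LMP8 and 9.02% in mi8, against 7.85% for OE-only regions. Within protein-coding spans their shares were 61.2% in HP109, 58.5% in LMP8 and 55.03% in mi8. The OE-only share there, 54.9%, was thus near that of mi8 alone and below those of HP109 alone and LMP8 alone. Farther than 100 kb from any protein-coding gene were 211 OE-only regions (8.49%), against 6.41% of other OE regions, 6.19% of HP109 alone, 5.88% of LMP8 alone and 8.24% of mi8 alone.

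Along genes with a known strand, OE-only regions did not gather near the start. With each gene cut into 5 equal parts, the part at the start held 20.5% of the OE-only regions in genes, and the following parts held 21.8%, 18.2%, 19.3% and 20.2%. In other OE regions the part at the start held 38.4%, and among regions of 1 list alone it held 25.6% in HP109, 39.8% in LMP8 and 31.6% in mi8. OE-only regions were thus spread nearly evenly from start to end.

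Outside genes, the side of the gene differed. Of 325 OE-only regions up to 10 kb from a coding gene of known strand, 176 lay beyond the gene end and not before its start (54.2%, interval 48.6 to 59.7%). The share beyond the end was 43.9% for other OE regions and 45.4% when weighted by strength. For regions of 1 list alone it was 47.6% in HP109, 37.5% in LMP8 and 43.6% in mi8. The excess lay in grouped regions: among OE-only regions with another within 10 kb, 79 of 100 lay beyond the end (79.0%, interval 69.7 to 86.5%), and among isolated ones 97 of 225 did (43.1%, interval 36.5 to 49.9%). Grouped regions of 1 other list alone lay beyond the end in 54.1% of cases in HP109, 40.4% in LMP8 and 45.5% in mi8. Neighbouring regions at 1 gene are not independent, so the interval of the grouped ones is too narrow. This pattern was noticed after the values were seen.

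**Figure D2:**
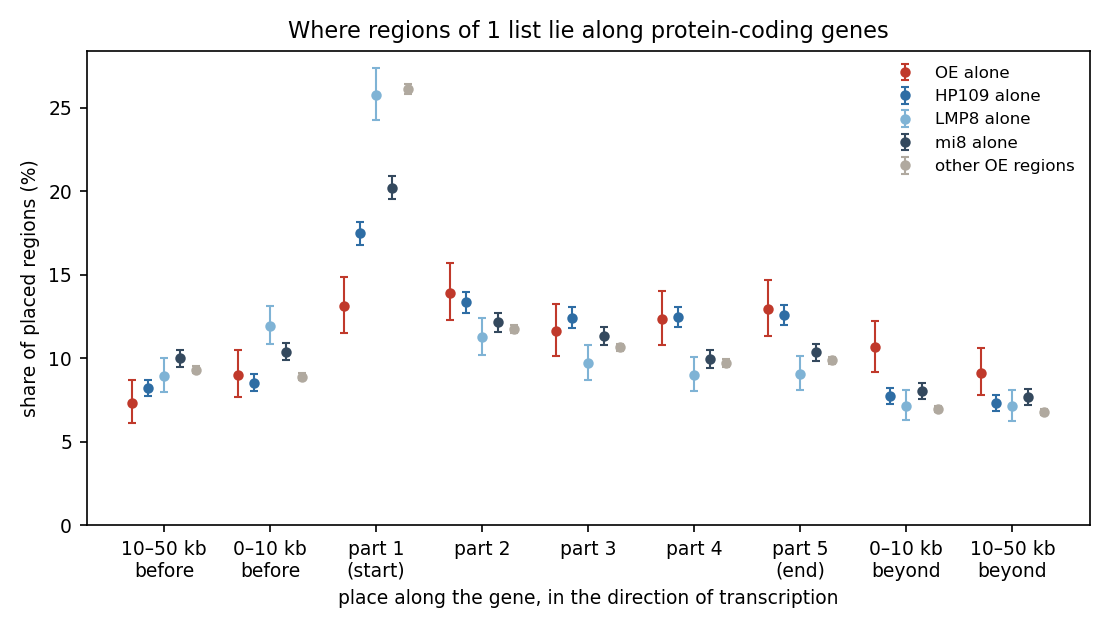
Share of regions (%, y axis) by their place along the nearest protein-coding gene in the direction of transcription (x axis), for regions of 1 list alone and for other OE regions; bars are exact 95% intervals. OE-only regions (red) are low in the part of the gene next to the start, at 13.1% of all placed regions, and lie above the other sets at 0 to 10 kb beyond the gene end, at 10.6%.

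Most OE-only regions stood alone, and a few genes held many. Of the 2485, 1994 (80.2%) had no other OE-only region within 10 kb, and 491 (19.8%, interval 18.2 to 21.4%) had one. That neighbour share was 32.0% in the larger HP109 set, 15.9% in LMP8 and 36.9% in mi8. Clusters of 5 or more regions with gaps of at most 10 kb numbered 20 and held 208 OE-only regions (8.37%). The corresponding share was 4.67% in HP109 alone, 0.671% in LMP8 alone and 3.53% in mi8 alone, where 59, 9 and 56 regions made up the largest cluster, against 25 in OE-only. Of the 16 clusters whose leading gene had a known strand, 12 reached beyond the end of that gene and 2 before its start. These 16 held 78 regions inside the gene, 87 beyond its end and 3 before its start. Of the 87, 12 are named by the coding gene Frmd8 but lie at the noncoding gene Neat1, and 6 past the end of Cpm lie in or next to Mdm2. The clusters at Hif1a, Cd274, Ddhd1 and Egln3, with 8, 5, 9 and 9 regions beyond the end, also hold annotated noncoding genes. How many of these regions lie in the noncoding genes was not counted.

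**Figure D3:**
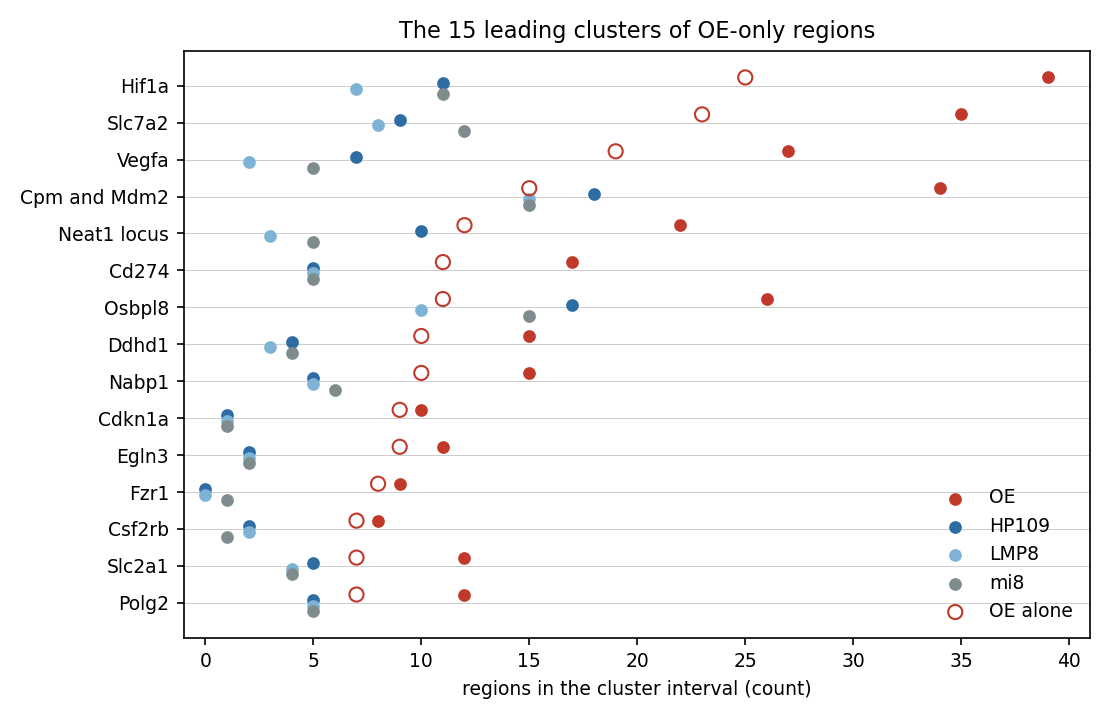
Number of regions (x axis) inside the interval of each of the 15 largest clusters of OE-only regions (rows, named by the nearest gene), for the 4 lists (filled) and for OE-only regions (open red). The OE list has the most regions in every interval shown, which the choice of the intervals favours; at Hif1a it has 39, against 11, 7 and 11 in HP109, LMP8 and mi8.

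An OE-only region lay in the span of 1058 of 21631 protein-coding genes (4.89%), and 19 genes held 5 or more. That number was 4 with no other peak allowed within 1000 bp, 9 at −log10 q of at least 5 in every list, 0 at an OE −log10 q of at least 10 and 120 with lists of equal length. At 5 or more, Nabp1 held 0, Malt1 1, Fzr1 2 and Mdm2 11, and at 10 or more 8 of the 15 leading genes held 0. The 15 genes with the most are described here by group; the 4 others with 5, Acpp, Polg2, St8sia4 and Basp1, tied with the last of them. Since these genes were picked for their counts, the counts are a description.

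Hif1a, which encodes the oxygen-regulated subunit of the transcription factor HIF-1, had 17 OE-only regions in its span on chromosome 12. The OE list had 30 regions there, against 14 in HP109, 11 in LMP8 and 13 in mi8. The OE-only regions started 19.7 kb into the 46.2 kb gene and ran to 45.995 kb, and 8 more followed between 3.04 and 12.9 kb past the gene end. None of them was before the start within 50 kb. Their −log10 q lay between 1.78 and 11.9 over the cluster of 25, and their summits held 9 to 20 reads. The part of Hif1a next to its start thus held none.

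Slc7a2, a transporter of arginine and other cationic amino acids on chromosome 8, held the most, with 18 OE-only regions among 33 OE regions. HP109 had 13 regions in the gene, LMP8 11 and mi8 16. The 18 lay between 32.2 and 58.4 kb from the lower-coordinate end of the 59.7 kb gene, and 5 more lay above its higher-coordinate end, 4 of these in the neighbouring gene Pdgfrl. The strand of Slc7a2 is not given in the table used, so the side is not called start or end. Summit pileups in the cluster of 23 were 10 to 18 reads.

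Of the genes of growth control, Cdkn1a, which encodes the cyclin-dependent kinase inhibitor p21, had 6 OE-only regions among its 8 OE regions, against 2 regions in each other list. One spanned the gene end: it was 1037 bp wide, the widest OE-only region of all, and had 28 reads at the summit, fold 6.08 and −log10 q 13.5. A further 3 lay 3.28 to 7.42 kb past the end. Fzr1, an activator of the anaphase-promoting complex, had 8 among 11 OE regions, against 2 in HP109, 2 in LMP8 and 3 in mi8. These 8 ran nearly the whole 11.5 kb gene and none reached beyond it within 10 kb. Mdm2, the ubiquitin ligase that degrades p53, had 5 among 20 OE regions, against 14, 12 and 11 in HP109, LMP8 and mi8. Its neighbour Cpm, a membrane carboxypeptidase, had 9 among 14, against 5, 4 and 5, and the ends of both genes face each other, so 1 cluster of 15 covers both.

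Cd274, which encodes the checkpoint ligand PD-L1, had 6 OE-only regions among 19 OE regions, against 12 regions in HP109, 12 in LMP8 and 13 in mi8. They lay between 8.62 and 25.5 kb from the start of the 25.99 kb gene, and 5 more lay 0.115 to 2.48 kb past its end. Their median −log10 q over the cluster of 11 was 7.85, with summits of up to 22 reads, and so above the median of 4.60 for all OE-only regions. Nfe2l2, which encodes the oxidative stress regulator NRF2, had 5 among 18, against 18, 12 and 14 in HP109, LMP8 and mi8. Malt1, a paracaspase in NF-kB signalling, had 7 among 18, against 26, 11 and 25. Nabp1, a single-strand DNA binding protein, had 6 among 11, against 5, 5 and 6.

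**Figure D4:**
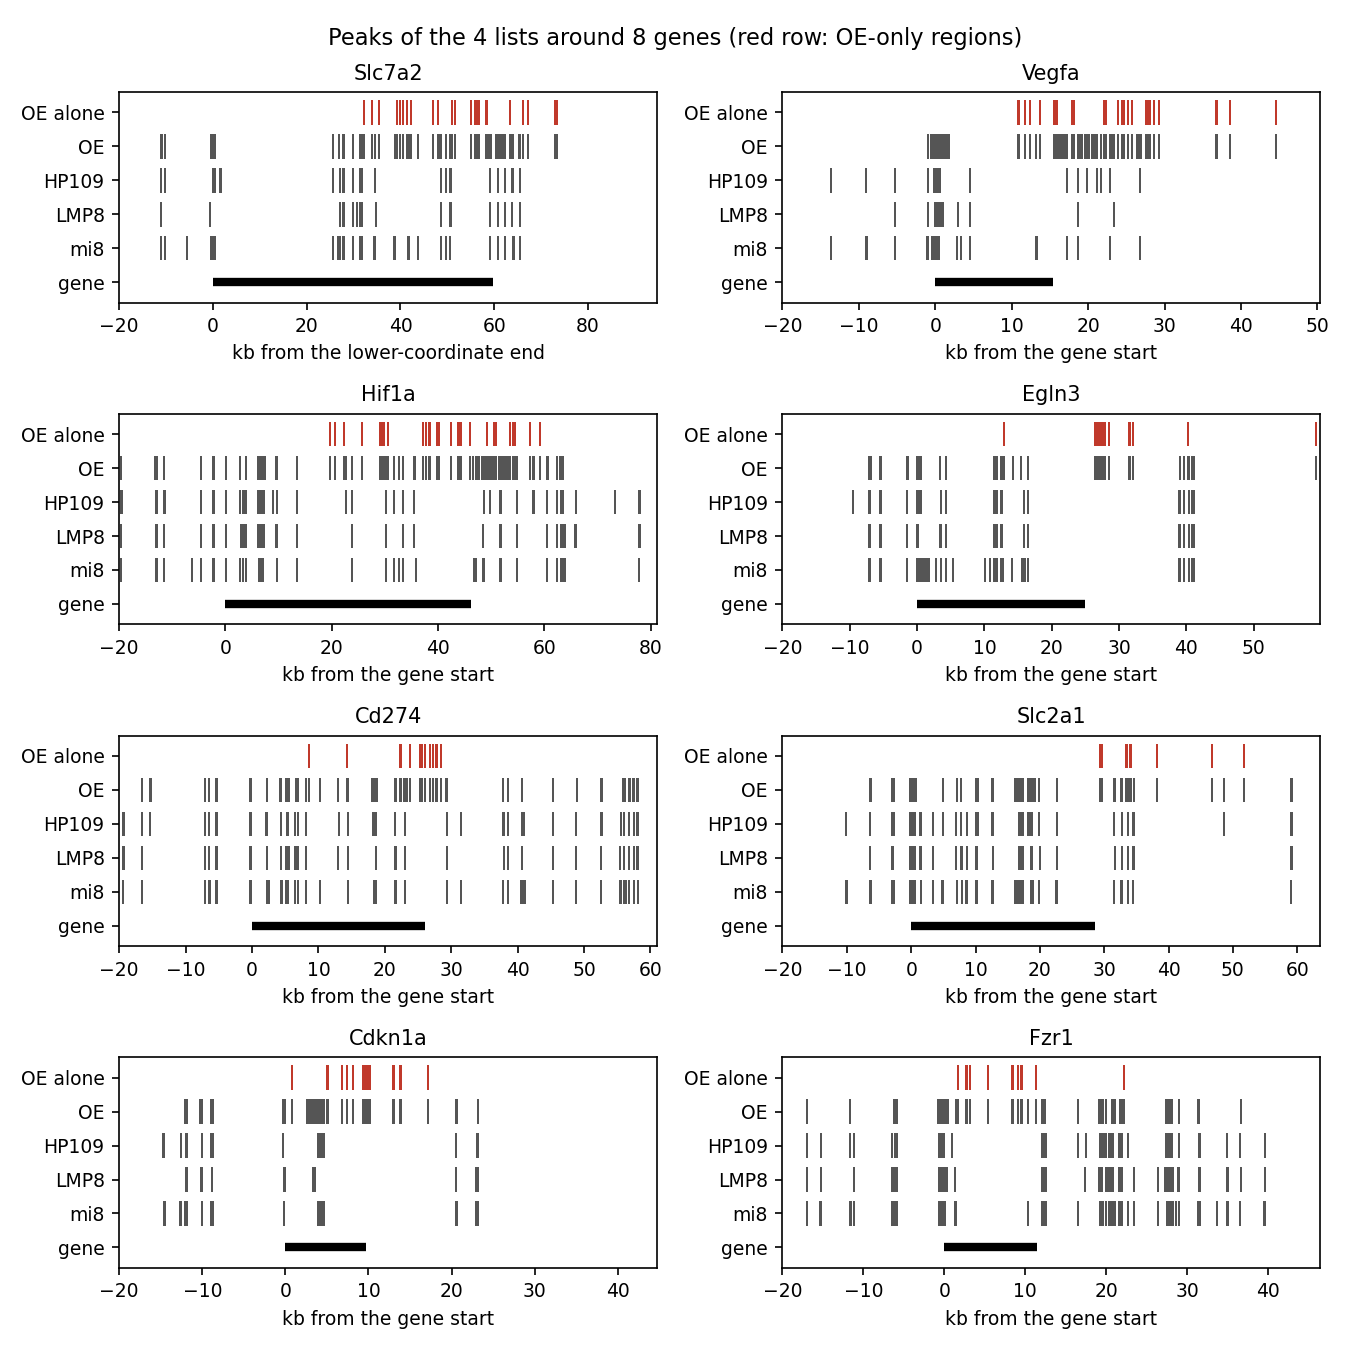
Peaks of the 4 lists (rows) by distance from the gene start in kb (x axis; from the lower-coordinate end for Slc7a2), with OE-only regions in red in the top row and the gene as a black bar; marks are drawn wider than short peaks are. OE-only regions gather in the later part of Hif1a and Cd274 and beyond the ends of Vegfa, Egln3 and Slc2a1, while they run along Fzr1.

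As in Malt1 and Nfe2l2 above, OE did not stand above every other list in the remaining genes of the 15. Osbpl8, a lipid transfer protein, had 13 OE-only regions among 47 OE regions, yet HP109 had 70 regions there, LMP8 65 and mi8 85; it also held the most regions of LMP8 alone of any gene. The long genes Dnm3 and Marchf1 had 6 OE-only each among 44 OE regions, against 44 and 51 in HP109, 44 and 43 in LMP8 and 55 and 53 in mi8. Pde4d had 5 among 108, against 151, 110 and 151, and Diaph3 had 5 among 29, against 34, 25 and 32. A count of OE-only regions therefore did not always go with more open regions overall.

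Several of the clusters already counted lay past the ends of genes that have few or no OE-only regions in their span. These genes were picked with the values in view and are not a further sample of the pattern beyond gene ends. Vegfa, a secreted growth factor for blood vessels, had 4 OE-only regions in the later part of the gene and 15 past its end, the farthest at 29.2 kb. In the 50 kb past the end the OE list had 22 regions, HP109 7, LMP8 2 and mi8 4. The strongest had −log10 q 16.6 and 25 reads and lay 2.52 kb past the end. Egln3, a prolyl hydroxylase that marks HIF alpha subunits for degradation, had 11 within 50 kb past its end, where the OE list had 16 regions and the other lists 5 each. Slc2a1, the glucose transporter GLUT1, had 7 between 0.808 and 23.1 kb past its end, with 16 OE regions in 50 kb, against 10 in HP109, 8 in LMP8 and 9 in mi8. None of these 3 genes had an OE-only region in the 50 kb before its start. Clusters of 9 past the end of Ddhd1, a phospholipase, and of 5 each past the ends of the bromodomain gene Brd2 and the antiproliferative gene Btg1 had the same form.

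The gene lists were read over gene spans with 10 kb on either side, where 1649 of 21631 genes (7.62%) had an OE-only region. The lists were chosen with earlier results of these data known, so their shares are a description. Of the hypoxia and glycolysis list, 13 of 35 genes had an OE-only region (37.1%). They were Hif1a, Egln1, Egln3, Vhl, Slc2a1, Hk2, Tpi1, Gapdh, Bnip3l, Ankrd37, Vegfa, Ero1a and P4ha1. The regions up to 10 kb outside the genes of known strand were 38 beyond the end and 2 before the start, while over all genes they were 375 and 289; a region in a neighbouring gene is counted here, and 1 region can count for more than 1 gene. For HP109 alone the list had 7 beyond and 5 before, for LMP8 alone 3 and 2 and for mi8 alone 8 and 7. The 38 lay at 9 genes: 8 each at Vegfa and Egln3, 6 at Hif1a, 5 at Slc2a1, 3 each at the glycolytic enzymes Tpi1 and Gapdh and at the endoplasmic reticulum oxidase Ero1a, and 1 each at hexokinase Hk2 and Vhl. Those at Vegfa, Egln3, Hif1a and Slc2a1 are regions already described above. The 3 past Gapdh lie inside the neighbouring gene Iffo1, and the 3 past Ero1a inside Gpr137c. The group past Tpi1 touches its neighbour Spsb2. The 1 past Vhl lies inside Irak2, for which it is counted again below. Regions of the other lists alone were near this list more often than near all genes as well, at 45.7% of its genes for HP109 (37.5% of all genes), 25.7% for LMP8 (16.1%) and 74.3% for mi8 (40.1%).

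Of the cell cycle and growth arrest list, 7 of 30 genes had an OE-only region in reach (23.3%). Besides Cdkn1a and Mdm2 they were the retinoblastoma family genes Rb1 and Rbl2, Btg1, its relative Btg2, and the stress-induced Gadd45a. Of their regions outside the genes, 11 lay beyond ends and 2 before starts. Of the 11, 4 are past the end of Mdm2 and lie inside its neighbour Cpm, where they are counted above. For HP109 alone they were 6 beyond and 10 before, for LMP8 alone 3 and 3 and for mi8 alone 5 and 5. Of the arginine and alternative activation list 3 of 15 had one (20%), Slc7a2, the nitric oxide synthase Nos2 and the interleukin-4 receptor gene Il4ra, and 18 of its 19 regions in spans were those of Slc7a2.

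Lists of dendritic cell activation lay on both sides of the 7.62% of all genes. Of costimulation and checkpoint genes, 2 of 20 (10%) had an OE-only region, Cd274 and Tnfsf9. Of antigen presentation genes it was 1 of 17 (5.88%), H2-DMa, and of interferon-stimulated genes 1 of 26 (3.85%), Gbp5. The 3 regions counted for H2-DMa lay before its start and belong to the cluster past the end of Brd2. Inflammatory cytokines and chemokines had 4 of 25 (16%), Il1a, Il27, Ccl17 and Nos2, and NF-kB and Toll-like receptor signalling also 4 of 25, Nfkbia, Nfkbib, Tlr4 and Irak2. Among dendritic lineage factors 3 of 20 (15%) had one, and there Zbtb46, a transcription factor of conventional dendritic cells, had 2, with −log10 q 13.3 and 6.26.

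Among PRC1.6 subunits, the complex of Pcgf6 itself, and Pcgf paralogs, 2 of 20 genes (10%) had an OE-only region, Max and Rybp, a share near the 7.62% of all genes. The Rybp region, in a subunit that joins PRC1 complexes, had 13 reads and −log10 q 5.42, and the Max region lay before its start, 3 bp from another list's peak, with 10 reads. Of 20 germline genes, 0 had one in reach.

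**Figure D5:**
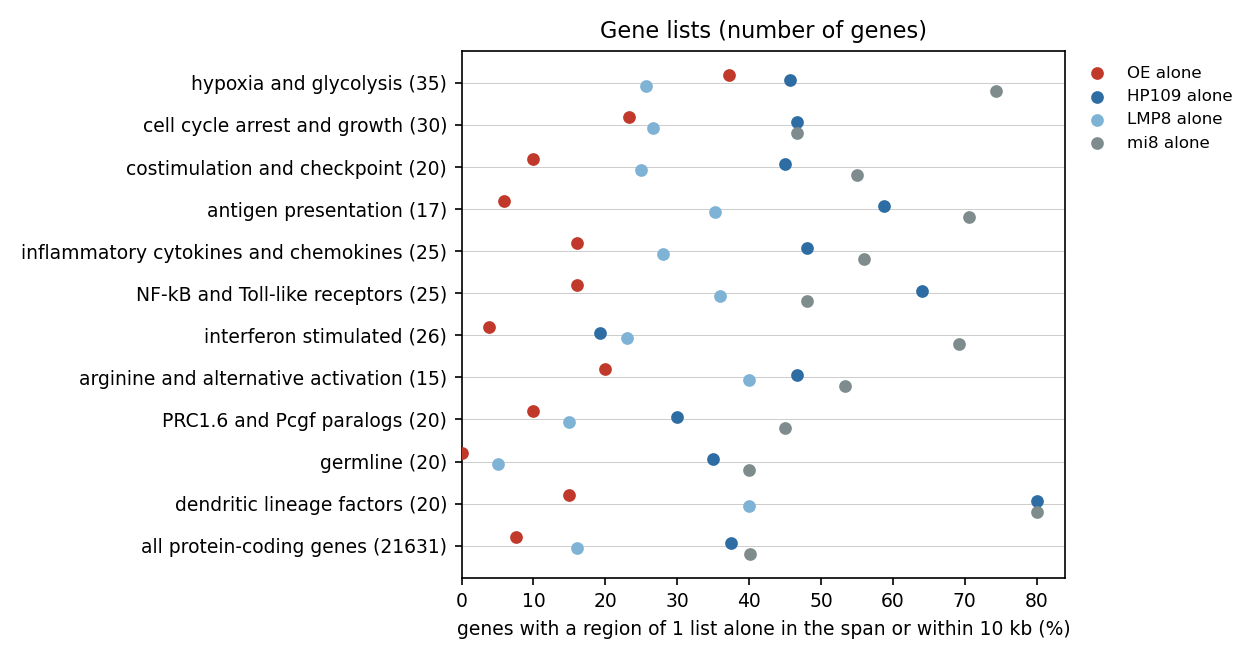
Share of the genes of each list shown (%, x axis) with a region of 1 list alone in the span or within 10 kb, by vector; the number of genes is in brackets and all protein-coding genes stand at the bottom. OE-only regions (red) reach 37.1% of the hypoxia and glycolysis genes and 7.62% of all genes.

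Within 1000 bp of either their start or their end, 202 of 21631 genes (0.934%) had an OE-only region, and the 10 genes with the strongest are named here. The Cdkn1a region led with −log10 q 13.5. At an annotated end also lay those of Slc16a14, a monocarboxylate transporter family member (10.9), Elmo1, a regulator of Rac in engulfment (9.92), Syt14 (9.92), the V-ATPase subunit gene Atp6v1d (8.97) and Lrp2bp (8.63). At an annotated start lay those of the chemokine gene Ccl27a (9.69), Misp3 (9.04) and the zinc finger gene Zbtb45 (9.01). The strand of Mark4, a microtubule affinity regulating kinase, is not given in the table used (12.3). The Misp3 and Zbtb45 regions had another list's peak at 9 bp and 65 bp, while the Cdkn1a region had none within 4.478 kb.

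The strongest OE-only regions lay apart from the clusters. The strongest, on chromosome 7, was 638 bp wide with 38 reads, fold 12.4 and −log10 q 31.5, and it lay 4.76 kb from Tnfrsf23, a decoy receptor gene. The next were in Glud1, the gene of glutamate dehydrogenase (25.2), 96.9 kb from Mfap3l (24.0), in the serotonin receptor gene Htr1f (24.0), 64.1 kb from the kinase gene Sik1 (23.3) and 5.68 kb from Npas3 (23.0). They were followed by regions 19.1 kb from Il2, the interleukin-2 gene (22.6), and in Wdr60 (22.6), Slc24a3 (21.9) and the corepressor gene Rcor3 (21.8). Summits of these 10 held 31 to 44 reads. None of these 10 lay in a cluster of 5 or more, and those near Sik1 and in Wdr60 and Slc24a3 were the 3 with another OE-only region within 10 kb.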

How the data were processed

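The submitters' processing notes name BWA, Picard and MACS2 and the build mm10, with no versions or thresholds. Each peak list pools the 2 libraries of a vector and was called against the mi8 input, per the labels. The labels also hold the word downsample, and what was downsampled and to what depth is not given. The score deposited by the authors follows the −log10 q; the fold, a ratio of summit pileup to local background, the −log10 p and −log10 q and the summit offset are the authors' values for each peak. They serve here to describe and rank peaks within 1 list.

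Peaks on chromosomes 1 to 19 and X were merged at an overlap of at least 1 bp; 121 peaks elsewhere were left out. Pileups and backgrounds were recovered from fold and −log10 p within 0.001 for 100% of peaks. Genes came from a RefSeq table of GRCm38.p6, the assembly of mm10 (21631 protein-coding genes, no exons), and strand from its promoter windows. Shares have exact (Clopper-Pearson) 95% intervals. Shares weighted by strength reweight other OE regions in 20 bins of −log10 q. The top bin starts at 10.9 and has no upper limit, so it holds other OE regions up to 185, while OE-only regions reach 31.5. Python 3.11.15 with pandas 2.3.3, numpy 2.4.6 and scipy 1.17.1 was used, and the merging and recovery were tested on simulated data. Of 320 listed genes in 18 lists, 319 were found.

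Named genes are the 10 strongest regions' nearest genes within 100 kb, the 15 genes with the most OE-only regions, the 10 with the strongest region at an end, and list genes with at least 2 in the span; others were named after their values were seen. The members and lists were chosen with earlier results of these data known. Sequence content was searched in promoter windows and not in whole regions. The result for 1 of the lists is not reported here.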

Additional observations from a re-analysis of the deposited data

How the results depend on the processing

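Which regions count as OE-only depended on the rule and on strength. There were 2485 as reported, 1511 with no other peak within 1000 bp, 161 at an OE −log10 q of at least 10 and 9818 when each list was held to its strongest 111488 peaks; 10721 OE peaks had no reciprocal overlap of 50%. The share at gene starts or ends (7.85%) was 5.18% and 3.71% with no other peak within 200 or 1000 bp, 6.02% with −log10 q of at least 5 in every list, 1.86% at 10 or more, and 3.34% and 16.02% with windows of 500 and 2500 bp. The share inside genes (54.9%) was 47.8% at 10 or more and 52.6% without the 15 leading genes. The share with a neighbour (19.8%) was 18.0% and 10.99% under the 200 and 1000 bp gaps, 14.01% at 5 or more, 4.97% at 10 or more, 25.99% with equal lists, 16.3% and 24.3% at distances of 5 and 20 kb, 16.1% without the 15 genes and 12.4% without the clusters of 5 or more. Genes with 5 or more numbered 19, against 4 under the 1000 bp gap, 9 at 5 or more, 0 at 10 or more and 120 with equal lists. The share beyond gene ends (54.2%) was 62.5% at 10 or more and 46.7% without the clusters. The 62.5% rests on few regions, since only those of the 161 up to 10 kb outside genes of known strand count. In the full set these are 325 of 2485. Under the 1000 bp gap 11 OE-only regions remained in Hif1a, 7 in Slc7a2 and 0 in Mdm2, Malt1 and Nfe2l2. The settings without genes or clusters, and all for the share beyond ends, were chosen after seeing the data; the cause of these shifts was not tested. No paired analysis was possible because each vector has 1 pooled list, and for the same reason no replicate could be left out.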

Other observations

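A pair of nuclear long noncoding RNA genes on chromosome 19, picked with the values in view, also held OE-only regions. Neat1, the scaffold RNA of nuclear paraspeckles, had 8 in its span, where the OE list had 18 regions, HP109 10, LMP8 4 and mi8 5. The cluster around it, counted above beyond the end of the coding gene Frmd8, held 12 OE-only regions over 17.9 kb. Malat1, an abundant RNA of nuclear speckles, had 3 in its span, where the OE list had 11 regions, HP109 9, LMP8 4 and mi8 5. Of 1005 annotated miRNA hairpins, 0 were overlapped by an OE-only region.

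The share of OE regions that were OE-only differed by chromosome. It was 3.83% on chromosome 10 (235 of 6135, interval 3.36 to 4.34%), which carries Osbpl8, Cpm, Mdm2, Fzr1 and Btg1, and 3.20% on chromosome 12, which carries Hif1a and Egln3. The lowest share was 1.76% on chromosome 5 (interval 1.44 to 2.13%).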
